A study of Mus musculus with 4 samples.

Results

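Endothelial cells are held to each other by adherens junctions and tight junctions. In the adherens junction, VE-cadherin binds its like on the neighbouring cell and is anchored to actin through catenins, while PECAM-1, an immunoglobulin protein, joins the same borders. Tight junction strands are built by claudins, with occludin and the junctional adhesion molecules beside them, and their tails bind the scaffold ZO-1. In lymphatic capillaries these proteins are known to be gathered into discontinuous, button-like contacts through which fluid enters, and in collecting lymphatics into continuous, zipper-like ones.

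The genes described here are Cdh5, Pecam1, Cldn5, Ocln, F11r, Jam2, Jam3, Esam and Tjp1, picked by symbol as adherens and tight junction genes of endothelium. All 9 were among the 23337 symbols in the deposited counts. Total RNA came from lymphatic endothelial cells of mouse embryos of day 14.5. The embryos were wild type, or were homozygous for a deletion whose position is not named in the labels. In the published study it removes an enhancer of Prox1, the lymphatic fate gene, bound by the transcription factor GATA2. For each genotype, the dorsal anterior parts of 1 whole litter were pooled and cells lacking CD45 and bearing LYVE1 and VE-cadherin were sorted. Part of each sort was lysed at once ("before culture"), and the rest was grown for 7 days on OP9 mouse stromal cells with FLT3L, IL3 and SCF at 100 ng/ml each, then sorted again for LYVE1 and VE-cadherin ("after culture"). This gives 4 groups of 1 library each. Since VE-cadherin, the product of Cdh5, was used in every sort, the presence of Cdh5 RNA is not a finding.

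Before culture, gene counts totalled 3987150 in wild type and 7943587 in mutant cells, and after it 1694669 and 3931557. The 9 junction genes held 0.31%, 0.304%, 0.509% and 0.498% of them, in that order. Levels are given as CPM, a gene's counts relative to all gene counts of its library, scaled between libraries by edgeR's trimmed mean method (TMM). Different genes are compared per kb of exon. Brackets hold 95% intervals, which cover counting error only. A gene is called higher or lower between 2 libraries where the whole interval of its fold lies beyond 2-fold. Only genes that reach 20 counts in 1 or both of them are measured in this way. With 1 library per group, these comparisons have no replicate check and no p-value. Culture was also tested over both genotypes together with edgeR's quasi-likelihood test, in which each cultured library is paired with the uncultured cells of its own sort. That test has 2 pairs and 1 residual degree of freedom, so edgeR took the spread of each gene wholly from the trend over all genes. Its p-values assume that the junction genes vary as other genes do. The SE given with its log2 folds was computed back from the fold and the test's F statistic. It rests on the same trend and does not measure the spread of the single gene.

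The labelled cell type was checked against its markers. Summed counts of 13 endothelial genes were 3153, 3378, 11385 and 10302 CPM in the order above, with none at 0 in any library. The 8 lymphatic genes summed to 7590, 7177, 7517 and 6324 CPM, and of the 7 tested 2 rose with culture and 5 fell in the paired edgeR test. Those that rose were Lyve1, itself used in the sort, at 1072, 890, 3523 and 2742 CPM, and Flt4, at 1092, 1194, 2543 and 2273 CPM. Among those that fell, Prox1 stood at 507, 487, 207 and 137 CPM and Pdpn at 87.3, 99.3, 0 and 2.39 CPM. Ccl21a had no counts in any library. Markers of other cells also moved: 9 stromal genes summed to 3354 and 5354 CPM before culture but 1225 and 1016 CPM after it, and 10 epithelial genes to 91.3 and 86.8 CPM before and 27.6 and 34.4 CPM after. In the paired edgeR test 8 of the 9 stromal genes fell. Pdgfrb did not, at 40.7, 49.6, 46.6 and 51.4 CPM. Col1a1 and Col1a2 were still at 374 and 468 CPM in cultured wild type cells, where Lum alone of the stromal genes was at 0. Of the other defining markers, the epithelial genes Cdh1 and Epcam were above 0 in every library, and Ptprc, which encodes CD45, had 91, 118, 6 and 26 counts. Their part in the results below was not tested, and in such bulk samples a change in the mix of cells and a change in RNA per cell cannot be told apart.

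Upstream sequences are shown for a tight junction gene that was lower after culture, Cldn5, and for one that was higher, F11r. RefSeq entries on GRCm38.p6, the assembly of mm10, were at hand for 4 members, namely these genes, Tjp1 and Ocln. Each run gives the 250 bases before the annotated start, 5′ to 3′, on the plus strand, at chr16:18776597-18776846 for Cldn5 and chr1:171437311-171437560 for F11r. Capitals mark GGAAG or its reverse CTTCC, a form of the core bound by ETS factors of endothelium. They also mark GATAA or its reverse TTATC, a form of the core bound by GATA factors. In the counts below, ETS core and GATA core stand for these strings only, and other forms were not counted.
Cldn5: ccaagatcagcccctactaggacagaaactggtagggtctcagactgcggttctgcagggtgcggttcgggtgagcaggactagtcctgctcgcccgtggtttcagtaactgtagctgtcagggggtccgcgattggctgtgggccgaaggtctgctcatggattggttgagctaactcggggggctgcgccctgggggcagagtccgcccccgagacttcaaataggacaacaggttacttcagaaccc
F11r: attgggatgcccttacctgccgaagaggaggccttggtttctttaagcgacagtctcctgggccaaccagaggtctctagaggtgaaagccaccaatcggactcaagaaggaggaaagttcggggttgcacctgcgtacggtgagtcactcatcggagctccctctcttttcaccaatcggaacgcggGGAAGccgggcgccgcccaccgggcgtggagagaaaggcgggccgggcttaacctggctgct
F11r held 1 ETS core, 62 bases before the start of its RefSeq entry, and no GATA core, while the Cldn5 window held neither. That F11r entry starts inside the gene span printed further on, so the last bases of its run lie within that span. The Tjp1 entry also starts inside its gene span printed further on, with its window at chr7:65371245-65371494 on the minus strand. That window held 1 ETS core, 99 bases before the start of the entry, and 1 GATA core. In Ocln neither was found in either of its 2 entries, of which 1 starts inside its gene span. Of all 32851 promoter windows of this length, 64.1% held an ETS core and 22.6% a GATA core, on either strand. These matches describe letters only.

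Before culture, Cdh5 dominated the junction genes. Its level per kb was 239 (232 to 245) in wild type and 254 (249 to 259) in mutant cells, which placed it at rank 26 and rank 28 of 22873 genes with a known exon length. It was followed by Cldn5 at 118 and 137, Pecam1 at 90.9 and 93.8, and Tjp1 at 73.7 and 76.0 CPM per kb. F11r stood at 27.1 and 32.4, Esam at 12.5 and 14.5, and Jam3 at 8.84 and 9.43. Jam2, at 3.52 and 3.39, and Ocln, at 2.52 and 1.98, were lowest. The order of the 9 genes was the same in both genotypes, and the intervals of neighbours in it overlapped only for Jam2 and Ocln in wild type cells. With the length of the longest transcript in place of all exons, Pecam1 stood above Cldn5, at 165 and 170 against 118 and 137 CPM per kb.

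**Figure D1:**
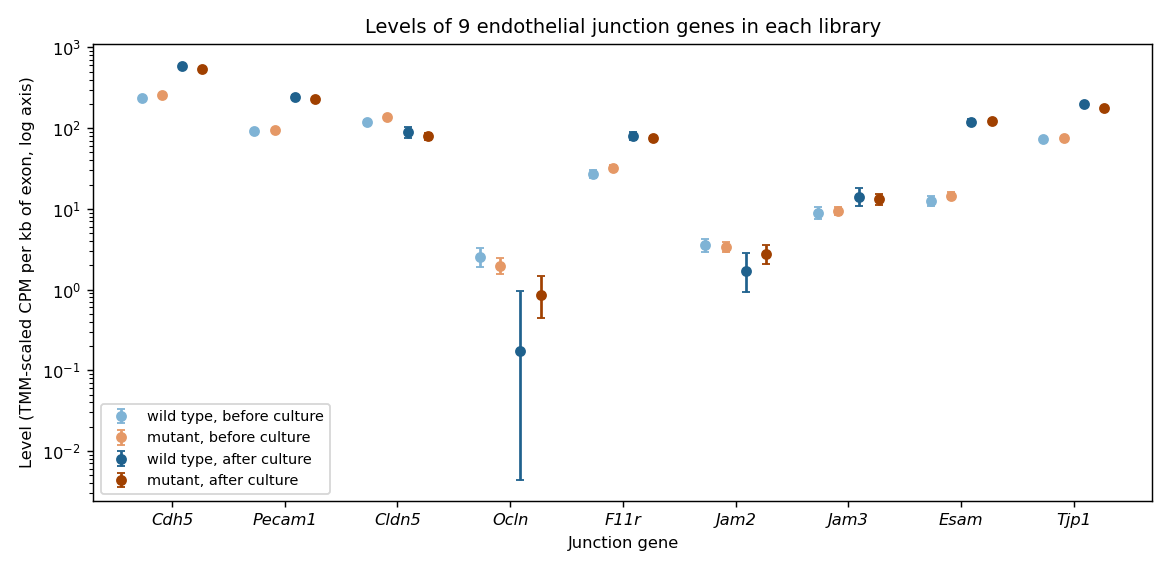
Level of each junction gene in the 4 libraries, in TMM-scaled CPM per kb of exon on a log axis; points are single libraries and bars are 95% counting intervals. Esam rose from 12.5 and 14.5 before culture to 119 and 123 after it, while Cldn5 went from 118 and 137 to 88.4 and 79.0.

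After culture the order had changed. Cdh5 was still first, at 589 (570 to 610) in wild type and 544 (532 to 556) CPM per kb in mutant cells, now at rank 21 in each library. Pecam1, at 243 and 232, and Tjp1, at 198 and 180, came next. Esam, at 119 and 123, now stood above Cldn5, at 88.4 and 79.0, and F11r, at 80.3 and 74.6. The intervals of Cldn5 and F11r overlapped in each genotype, as did those of Jam2 and Ocln in wild type cells, so these neighbours were not separated. Jam3 stood at 14.1 and 13.1, Jam2 at 1.68 and 2.77, and Ocln at 0.172 and 0.850 CPM per kb.

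The make-up of the junction RNA was thus alike between genotypes and differed between culture states. Cldn5 made up 20.5% and 22% of the summed level per kb of the 9 genes before culture, and 6.63% and 6.33% after it. Esam went from 2.16% and 2.33% to 8.91% and 9.84%. The shares of Cdh5, at 41.4% and 40.8% before and 44.2% and 43.6% after culture, moved little. Per kb, Esam held 0.105 (0.0892 to 0.124) and 0.106 (0.0949 to 0.119) times the level of Cldn5 before culture, and 1.34 (1.13 to 1.61) and 1.55 (1.38 to 1.75) times after it. Such ratios within a library do not depend on how the libraries are scaled. They and the shares do depend on the gene length used. With the longest transcript, Esam held 0.162 and 0.163 times the level of Cldn5 before culture and 2.07 and 2.39 times after it.

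**Figure D2:**
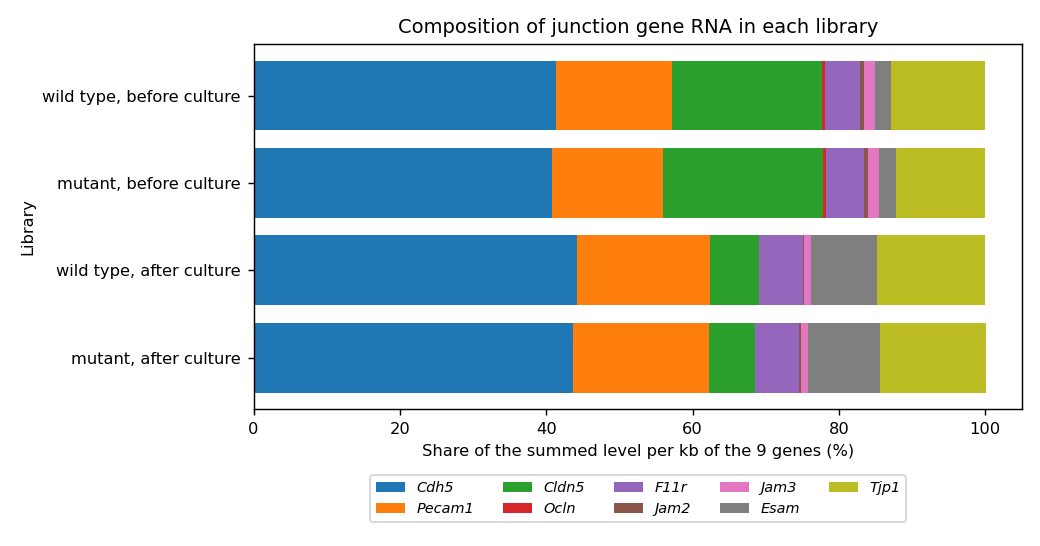
Share of each gene in the summed level per kb of the 9 junction genes, in percent, with 1 bar per library. The Cldn5 segment is 20.5% and 22% wide before culture and 6.63% and 6.33% after it, while Esam widens from 2.16% and 2.33% to 8.91% and 9.84%.

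The comparison of cultured with uncultured cells asks how the junction genes stood once these cells had been grown on OP9 cells, a stroma widely used to test for blood-forming potential. In both genotypes 5 of the 9 genes were called higher, namely Cdh5, Pecam1, F11r, Esam and Tjp1. Of all genes measured, 8.17% were called higher in wild type and 5.19% in mutant cells. Ocln was called lower in wild type cells, where 5.77% of genes were, and no junction gene was called lower in mutant cells, where 3.62% were. The median log2 fold of the 9 genes was 1.30 in wild type and 1.10 in mutant cells, against -0.04 and -0.10 over all measured genes. In the paired edgeR test the same 5 genes rose, and Cldn5 and Ocln fell, at an adjusted p under 0.05. Of the 18531 genes tested, 23.5% rose and 18.6% fell at that threshold, or 42.1% in either direction. The median log2 fold of the 9 genes in this test was 1.15, against -0.17 over all genes.

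The size of these folds depends on the scaling. With total gene counts in place of TMM, all log2 folds with culture shift by -0.62 in wild type and -0.45 in mutant cells, and only Esam stayed called higher in either. The libraries also hold counts in olfactory and vomeronasal receptor genes, which are silent in most tissues, and the rate per kb in these genes was taken as a background. Subtracting it shifts the scale by -0.49 and -0.26, and left Esam called higher in wild type cells, and Esam and Pecam1 in mutant cells. All 5 genes stayed above 1 under each of these scalings.

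Cdh5 (chr8:104101625-104144511, plus strand, mm10) encodes VE-cadherin, the defining adhesion protein of endothelial adherens junctions. It had 5000 and 9820 counts in wild type and mutant cells before culture and 3405 and 7641 after it, or 1003, 1066, 2477 and 2285 CPM in the same order. Both cultured libraries lay above both uncultured ones. The fold with culture was 2.47 (2.36 to 2.58) in wild type and 2.14 (2.08 to 2.21) in mutant cells. By the paired edgeR test its log2 fold was 1.15 (SE 0.18), with an adjusted p of 6.28e-09. With total counts the folds were 1.60 and 1.57, and with background subtracted 1.77 and 1.80.

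Among 10423 other genes with at least 200 counts in total, the 5 genes whose log2 ratios to the uncultured wild type library came nearest to those of Cdh5 in the other 3 libraries were App, Ubap2l, Slc50a1, Bcat2 and Anxa5. Their largest difference from Cdh5 in any library was 0.0233 to 0.0418 on the log2 scale. Of the junction genes Tjp1 was closest, at position 63 of that ranking with a difference of 0.120, and Pecam1 stood at position 157. This likeness rests on 3 ratios.

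Pecam1 (chr11:106654217-106750628, minus strand) encodes the border protein PECAM-1, which leukocytes engage as they cross endothelium and which platelets and leukocytes also carry. Its levels were 566 and 584 CPM before culture and 1513 and 1443 CPM after it, with no overlap between culture states. It was 2.67-fold higher after culture in wild type cells (2.52 to 2.83) and 2.47-fold higher in mutant cells (2.37 to 2.57), with an adjusted p of 5.12e-12 in the paired edgeR test. Of 8 megakaryocyte and platelet genes, Itga2b rose from 14.7 and 14.3 to 176 and 175 CPM, whereas Pf4, a defining platelet gene, had 17 and 22 counts before culture and 0 and 4 after it. The 9 leukocyte genes summed to 85.5 and 83.3 CPM before culture and 36.4 and 48.4 CPM after it. The part of such cells in Pecam1 was not tested.

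Cldn5 (chr16:18776847-18778262, plus strand, a single exon) encodes claudin-5, the main strand-forming claudin of endothelium. It had 834 and 1781 counts before culture and 172 and 374 after it, or 167, 193, 125 and 112 CPM. Both cultured libraries lay below both uncultured ones, opposite to Cdh5. The fold with culture was 0.748 (0.631 to 0.882) in wild type and 0.579 (0.516 to 0.647) in mutant cells, neither of which was called at 2-fold. In the paired edgeR test Cldn5 fell by 0.67 on the log2 scale (SE 0.18, adjusted p 0.000670), but with DESeq2 the adjusted p was 0.0593. Relative to Cdh5, Cldn5 stood at 0.495 (0.460 to 0.533) and 0.538 (0.512 to 0.566) times its level per kb before culture, and at 0.150 (0.128 to 0.175) and 0.145 (0.131 to 0.161) times after it.

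Ocln (chr13:100496507-100552718, minus strand) encodes occludin, a strand protein best known from epithelia and tight endothelial barriers. It rested on 53 and 77 counts before culture and on 1 and 12 after it. The background rate alone would give 28.0, 35.2, 2.27 and 6.80 counts over its exons in the 4 libraries, which is 52.9%, 45.7%, 227% and 56.7% of what was counted. The fold with culture was 0.0684 (0.00170 to 0.398) in wild type, called lower, and 0.429 (0.213 to 0.794) in mutant cells. Its adjusted p in the paired edgeR test was 0.00509, with a log2 fold of -1.92 (SE 0.60), while DESeq2 gave it no adjusted p. With background subtracted no fold could be computed in wild type cells, and in mutant cells it was 0.287 (0.0729 to 1.13). The epithelial gene Cdh1, measured in the same libraries, had 119, 208, 12 and 41 counts, and its part in Ocln was not tested.

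The junctional adhesion molecules differed among themselves. F11r (chr1:171437535-171464603, plus strand) encodes JAM-A, found in endothelium, epithelium and platelets. Its levels were 72.2 and 86.4 CPM before culture and 214 and 199 CPM after it. It was 2.96-fold (2.53 to 3.46) higher after culture in wild type and 2.30-fold (2.07 to 2.55) higher in mutant cells, with an adjusted p of 9.66e-13 in the paired edgeR test. Jam3 (chr9:27097384-27155421, minus strand) encodes JAM-C, a partner of JAM-B on neighbouring cells. It stood at 28.3 and 30.2 CPM before culture and 45.1 and 41.9 CPM after it, with folds of 1.59 (1.16 to 2.16) and 1.39 (1.12 to 1.71) and an adjusted p of 0.0557 in edgeR. With total counts these folds were 1.03 and 1.02. An antisense transcript overlaps 1159 nt of its exons, and the strand setting of the counting is not given in the sources used here, so Jam3 counts may include it.

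Jam2 (chr16:84774123-84825928, plus strand) encodes JAM-B. It had 106, 189, 14 and 56 counts, of which the background rate would give 37.9%, 26.7%, 23.2% and 17.4%. Its levels of 21.3 and 20.5 CPM before culture became 10.2 (5.57 to 17.1) and 16.7 (12.6 to 21.7) CPM after it, with folds of 0.479 (0.253 to 0.839) in wild type and 0.816 (0.595 to 1.11) in mutant cells. Its adjusted p was 0.0931 in edgeR. Per kb, Jam2 held 0.398 (0.306 to 0.516) and 0.360 (0.298 to 0.434) times the level of Jam3 before culture and 0.120 (0.0618 to 0.216) and 0.212 (0.152 to 0.291) times after it.

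Esam (chr9:37528078-37538319, plus strand) encodes an adhesion molecule of endothelial cells and platelets, and is also used as a marker of blood stem and progenitor cells. It had the largest rise with culture among the 9 genes in both genotypes. Its counts were 178 and 383 before culture and 468 and 1177 after it, or 35.7, 41.6, 340 and 352 CPM. The fold was 9.53 (8.0 to 11.4) in wild type and 8.47 (7.54 to 9.53) in mutant cells, and the paired edgeR test gave a log2 fold of 3.11 (SE 0.18) with an adjusted p of 1.22e-60. With total counts the folds were 6.19 and 6.21, and with background subtracted 7.58 and 7.53, all called.

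Tjp1 (chr7:65296165-65527781, minus strand) encodes ZO-1, the scaffold that ties claudins and junctional adhesion molecules to actin. Its levels were 575 and 594 CPM before culture and 1544 and 1402 CPM after it, without overlap. It was 2.68-fold (2.54 to 2.84) higher after culture in wild type and 2.36-fold (2.27 to 2.46) higher in mutant cells, with an adjusted p of 1.56e-11 in the paired edgeR test. Per kb, Tjp1 held 0.309 and 0.300 times the level of Cdh5 before culture and 0.335 and 0.330 times after it.

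The 13 endothelial reference genes, which hold receptors such as Kdr and Tek and transcription factors such as Erg, were themselves higher after culture. Their summed counts were 3.61-fold (3.53 to 3.69) higher in wild type and 3.05-fold (3.0 to 3.10) higher in mutant cells. Set against that sum, Esam was the only junction gene with a higher ratio after culture, 2.64 (2.22 to 3.16) and 2.78 (2.47 to 3.12) times the ratio before it. Cdh5 stood at 0.684 and 0.703, Pecam1 at 0.740 and 0.810, F11r at 0.820 and 0.754, and Tjp1 at 0.743 and 0.774. Their direction with culture therefore turns when endothelial genes are the scale. Cldn5, at 0.207 (0.175 to 0.244) and 0.190 (0.169 to 0.212), Jam3, at 0.441 and 0.455, and Jam2, at 0.133 and 0.268, lay lower. This scale was chosen after the rise of the reference genes had been seen.

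**Figure D3:**
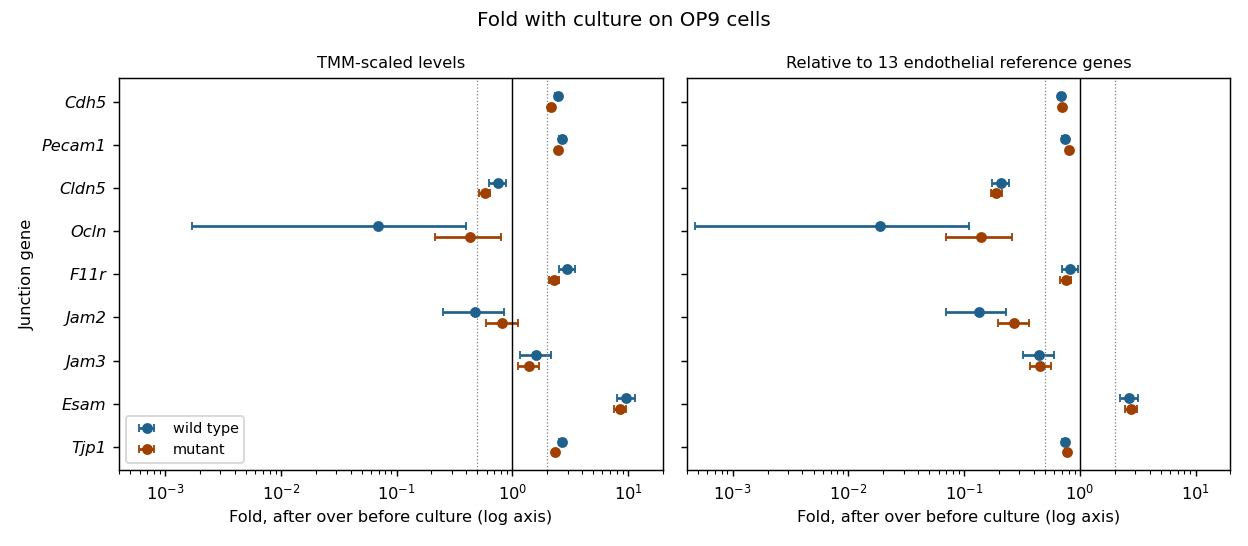
Fold of each junction gene after over before culture, on a log axis, in wild type and mutant cells, with 95% counting intervals; the left panel uses TMM-scaled levels and the right panel the ratio to 13 endothelial reference genes, and dotted lines mark 2-fold. Esam lies right of 1 in both panels, Cdh5, Pecam1, F11r, Tjp1 and Jam3 only in the left one.

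Other genes of the junction were followed in fixed lists, which were chosen with earlier results of these data known. With total counts every culture fold is multiplied by 0.649 in wild type and by 0.733 in mutant cells, while background subtraction moves genes by differing amounts. Of 12 partners of the adherens junction, 4 were called higher and none lower in cultured wild type cells, and 2 higher and none lower in mutant cells, with medians of 0.65 and 0.43 on the log2 scale. Over all measured genes 8.17% were called higher in wild type and 5.19% in mutant cells, and 5.77% and 3.62% lower. With background subtracted 1 of the 12 was called higher in each genotype, Ptprb. After subtraction, 934 and 849 of all 17154 and 18807 measured genes were called higher, and 445 and 610 lower. These values over all genes also apply to the calls in the lists below. Ptprb, the phosphatase VE-PTP that binds VE-cadherin, was 3.28-fold (3.05 to 3.53) and 3.43-fold (3.27 to 3.61) higher, and Ctnnd1, p120-catenin, which holds VE-cadherin at the surface, 2.28-fold and 2.30-fold higher. Jup, plakoglobin, was at 2.52 in wild type, where it was called, and at 1.68 in mutant cells, and Vcl, vinculin, likewise at 2.42 and 2.03. Their difference between genotypes was not tested. By the paired edgeR test 6 of the 12 rose and 1 fell, where 23.5% of all genes tested rose and 18.6% fell. The same shares over all genes apply to the paired counts of the lists below. Ctnnb1, beta-catenin, had an adjusted p of 0.112.

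A further list held 12 junction regulators of the pathway of the GTPase Rap1 and the CCM proteins, which keep VE-cadherin junctions stable. Of these 12, 5 were called higher in wild type and 4 in mutant cells, with none lower. Over all measured genes 8.17% and 5.19% were called higher. With background subtracted 3 of the list were called higher in each genotype. Heg1, a receptor for the CCM complex, was 4.73-fold (4.26 to 5.27) and 3.71-fold (3.45 to 3.99) higher, and S1pr1, the sphingosine phosphate receptor that tightens endothelium, 4.36-fold and 3.79-fold. Rasip1, a Rap1 effector, was 2.73-fold and 2.16-fold higher, and both of its calls ended with background subtracted, at 1.98 and 1.82. Arhgap29, its partner, was at 2.26 in wild type, where it was called (1.65 and not called with background subtracted), and at 2.07 in mutant cells. Rapgef1, an activator of Rap1, was 3.81-fold (3.40 to 4.26) and 2.60-fold (2.42 to 2.80) higher. The paired edgeR test put 9 of these 12 genes higher and none lower.

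Tight junction genes outside the 9 were followed in a further pair of lists. Of 17 scaffold and strand genes, none was called higher and 3 were called lower in wild type cells. In mutant cells none was called higher and 1 lower, and the medians were -0.58 and -0.74. Over all measured genes 5.77% were called lower in wild type and 3.62% in mutant cells. Pard3, a polarity protein, had folds of 0.337 (0.251 to 0.443) and 0.389 (0.332 to 0.453), and Inadl, which encodes the scaffold PATJ, 0.286 (0.194 to 0.408) in wild type cells. Marveld3, a strand protein related to occludin, had 41 counts before and 0 after culture in wild type cells. It was 3.77-fold lower when the 0 is set to a floor of 3 counts. That floor is a stand-in and not a lower bound, as the counting interval starts at 2.93-fold lower. By the paired edgeR test 1 of the 17, Cgnl1 (paracingulin), rose and 6 fell. Of all genes tested 23.5% rose and 18.6% fell, or 42.1% in either direction. The number past the threshold in either direction therefore does not set this list apart.

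Claudins other than Cldn5 numbered 25, and only 11 of them in wild type and 18 in mutant cells had enough counts to be measured. None was called higher, and 3 were called lower in wild type and 2 in mutant cells, where 5.77% and 3.62% of all measured genes were. With background subtracted, 0 claudins were called lower in wild type and 2 in mutant cells. For Cldn10 and Cldn11 in wild type cells, with 0 counts after culture, no such fold could be computed, so neither could be called. The Cldn4 fold there was 0.0473 (0.00311 to 0.719), not called. Cldn11 went from 97 counts to 0 in wild type cells, 8.92-fold lower against that floor, with a counting interval from 7.12-fold. In mutant cells it went from 188 to 14, a fold of 0.205 (0.11 to 0.353). Cldn11, Cldn4, Cldn10 and Marveld3 reached 20 counts in wild type cells only in the deeper library before culture. A gene reaches that number more easily in the deeper library, so the filter favours calls in the lower direction. Cldn4, a claudin of epithelia, had folds of 0.107 (0.0127 to 0.400) and 0.161 (0.0633 to 0.341). Cldn10 went from 29 counts to 0 in wild type cells, 2.67-fold lower against the floor, with a counting interval from 2.03-fold. The summed level of these 25 claudins was 155 and 154 CPM before culture, of which the background rate would give 43.9% and 30.1%, and 116 and 110 CPM after it. The paired edgeR test put 1 of the 18 genes tested higher, Cldn25, and 3 lower. Over all genes 42.1% passed in either direction, a larger share than in this list.

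Of 10 other adhesion molecules of endothelium, 3 were called higher in wild type and 4 in mutant cells and none lower. Over all measured genes 8.17% and 5.19% were called higher. Selp, the platelet and endothelial selectin, was 7.73-fold (5.76 to 10.5) and 6.86-fold (5.52 to 8.59) higher, Mcam 5.62-fold and 4.97-fold, and Icam2, which sits at endothelial borders, 4.31-fold and 3.09-fold. Sele, the endothelial selectin, was at 2.41 (1.81 to 3.19) in wild type and at 3.55 (2.92 to 4.33) in mutant cells, where it was called. By the paired edgeR test 8 rose and 1, Podxl, fell.

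**Figure D4:**
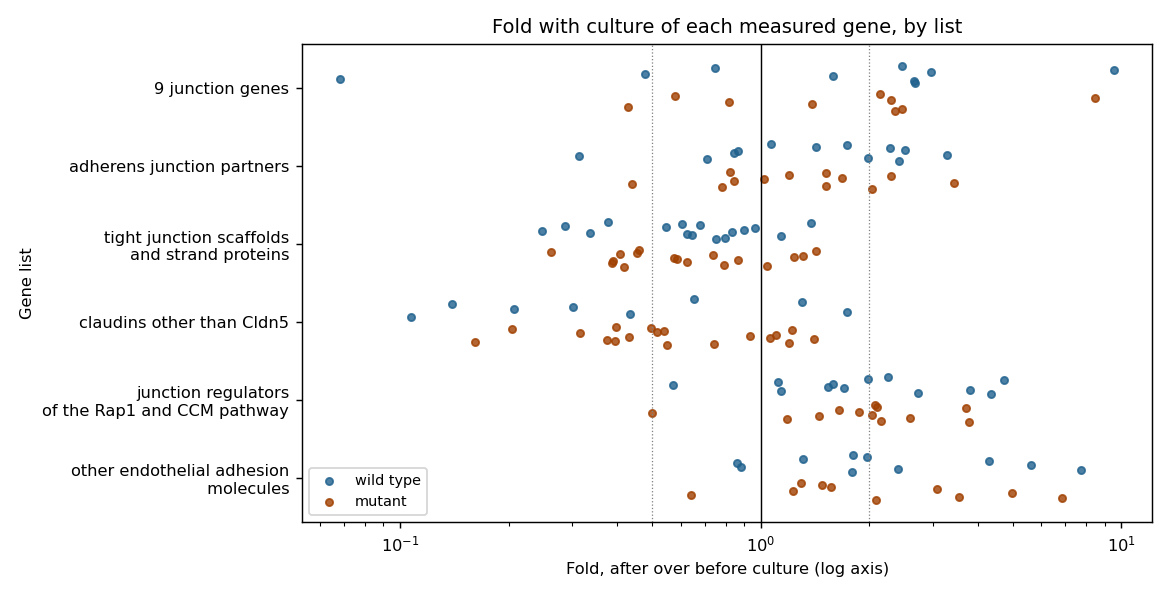
Fold after over before culture of each measured gene, on a log axis, by gene list, with wild type in blue and mutant in brown; dotted lines mark 2-fold, and genes with no counts in the cultured library are left out. Of the 12 regulators, 11 lie right of 1 in each genotype.

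The comparison of genotypes asks whether the deletion altered junction genes. Before culture none of the 9 was called in either direction, where 0.0158% of all measured genes were called higher and 0.0475% lower. Folds of mutant over wild type ran from 0.786 (0.547 to 1.14) for Ocln to 1.20 (1.05 to 1.36) for F11r. Cldn5 stood at 1.15 (1.06 to 1.26), Esam at 1.16 (0.972 to 1.40), Cdh5 at 1.06 (1.03 to 1.10), and Pecam1 and Tjp1 each at 1.03 (0.986 to 1.08). Jam3 was at 1.07 (0.868 to 1.32) and Jam2 at 0.964 (0.756 to 1.24). Every interval lay inside 2-fold, and those of Cdh5, Cldn5 and F11r left out 1. The median log2 fold of the 9 genes was 0.09, against 0.04 over all measured genes.

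With total counts this comparison shifts by -0.11, and Cdh5, Pecam1 and Tjp1 stood below 1, at 0.986, 0.958 and 0.958. Subtracting background shifts it by -0.21, and Cdh5, Pecam1 and Tjp1 were then at 0.920, 0.897 and 0.898, and F11r at 1.06. The 9 stromal genes summed to 1.60 times (1.57 to 1.62) the wild type level in the mutant library before culture, and their part in these folds was not tested. Against the endothelial reference genes Cdh5 was at 0.991 (0.958 to 1.03), Cldn5 at 1.08 (0.992 to 1.17) and F11r at 1.12 (0.984 to 1.27).

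After culture, again none of the 8 measured junction genes was called between genotypes, with 0.244% of all measured genes called higher and 0.0731% lower. Cdh5 stood at 0.922 (0.886 to 0.961) in mutant relative to wild type cells, Tjp1 0.908 (0.863 to 0.957), Pecam1 0.954 (0.906 to 1.0) and Esam 1.03 (0.928 to 1.15). Cldn5, at 0.894 (0.744 to 1.08), F11r, at 0.928 (0.808 to 1.07), and Jam3, at 0.928 (0.684 to 1.27), had intervals that held 1. Jam2, on 56 against 14 counts, was at 1.64 (0.903 to 3.20), so that a 2-fold difference was not excluded at this depth. Ocln had too few counts to be measured, 12 against 1, with a fold of 4.93 (0.730 to 211). With total counts Cdh5 was at 0.967 (0.929 to 1.01). Against the endothelial reference genes Cdh5 was at 1.02 (0.979 to 1.06), Pecam1 at 1.05, Tjp1 at 1.0 (0.953 to 1.06) and Esam at 1.14 (1.03 to 1.27). The direction of Cdh5 and Pecam1 thus turns on that scale. F11r, at 1.03 (0.893 to 1.18), and Jam3, at 1.03 (0.755 to 1.41), turn as well. The intervals of Cdh5, F11r and Jam3 hold 1 there.

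**Figure D5:**
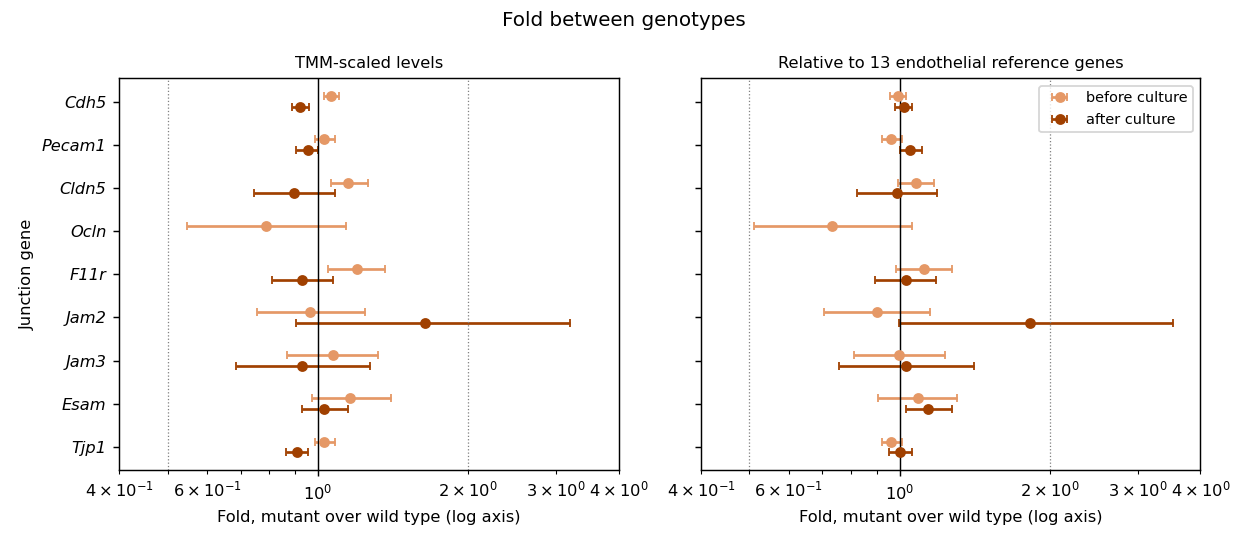
Fold of each junction gene, mutant over wild type, on a log axis, before and after culture, with 95% counting intervals; panels as for culture, dotted lines mark 2-fold, and Ocln after culture (12 against 1 counts) is not drawn. All drawn intervals except that of Jam2 after culture lie within 2-fold.

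Among the further lists, 1 gene was called between genotypes, Marveld3 after culture, with 20 counts in mutant and 0 in wild type cells. Its fold was 2.74 against the floor, with a counting interval from 2.03. It reached the 20 counts needed only in the mutant library, which is the deeper one. With background subtracted no fold could be computed for it. Of all measured genes 0.244% were called higher in this comparison. Before culture Marveld3 had 94 and 41 counts. The most counted adherens junction partner, Ctnnb1, stood at 1.10 (1.05 to 1.14) before and 0.930 (0.872 to 0.992) after culture, with Ctnna1, alpha-catenin, at 1.04 before and Ptprb at 1.06 after it. Rasip1 stood at 1.22 (1.14 to 1.30) and 0.959 (0.887 to 1.04), and Arhgap29 at 0.972 and 0.891. Cgnl1 and the scaffold gene Mpdz were at 1.16 and 1.04 before culture. Of the claudins, Cldn25 was at 1.07 and 0.879, Cldn11 at 1.05 before and Cldn12 at 0.749 (0.463 to 1.23) after culture. Of the other adhesion molecules, Icam1 was at 1.10 and Podxl at 1.09 before culture, and Icam2 at 0.949 and Mcam at 1.20 (1.06 to 1.35) after it.

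The genotype fold after culture was 0.774 (0.635 to 0.944) times that before culture for Cldn5, 0.776 (0.645 to 0.934) for F11r, 0.868 (0.824 to 0.915) for Cdh5, 0.880 (0.822 to 0.942) for Tjp1 and 0.924 (0.863 to 0.990) for Pecam1. These 5 intervals left out 1, as did 32.7% of those of all 9106 genes with at least 20 counts in each library, whose median was 0.873. With background subtracted, that ratio was 1.02 (0.965 to 1.07) for Cdh5, 1.03 (0.959 to 1.10) for Tjp1, 0.903 (0.740 to 1.10) for Cldn5 and 0.891 (0.737 to 1.08) for F11r, whose intervals hold 1. For Pecam1 it was 1.08 (1.01 to 1.16), on the other side of 1.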

How the data were processed

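RNA was measured in 4 libraries, 1 per combination of genotype and culture state. The deposited values are raw counts of read pairs per gene symbol. Per the submitters' processing notes they were made with bcl2fastq, STAR and HTSeq 0.11.2 on mm10, and the names of the deposited tables state that duplicates were removed with sambamba. Libraries were stranded and paired-end, with reads of 75 nt, per the labels' protocols. Annotation and the strand setting of the counting: not given in the sources used here. Duplicate removal can lower the counts of abundant genes more than those of rare ones. The 5 HTSeq summary classes, 89.5% to 92.1% of pairs, were kept out of totals and tests. Of uniquely placed pairs, 89.3% and 85.8% lay in no gene before culture, in wild type and mutant cells, and 66.7% and 74.2% after it. The background rate over all exons would give 16.4% and 10.3% of gene counts before and 3.12% and 4.03% after culture. The libraries thus differed in these shares along the same contrast as the culture folds. Positions and exon lengths came from GENCODE vM21, which matched 98.0% of symbols.

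Counts were scaled by TMM (edgeR 4.0.16, R 4.3.3). Levels carry exact Poisson intervals and folds Clopper-Pearson intervals of the share of 1 library in both counts, computed with scipy 1.17.1. As the pairs carry no molecular identifiers, they may not each stand for 1 molecule. List medians use a prior count of 2. Background was the count per kb of coding sequence in 1431 olfactory and vomeronasal receptor genes (6.64, 8.34, 0.537 and 1.61 in wild type and mutant cells before and then after culture), multiplied by exon length. The paired test was edgeR's quasi-likelihood test of culture with the sort as a block, adjusted by Benjamini-Hochberg over 18531 genes kept by filterByExpr, with DESeq2 1.42.0 as an alternative. The pairing comes from the labels' protocols: each cultured library grew from the same sort as its uncultured one. Both pairs differ in genotype, so the residual includes any difference of culture effect between genotypes. Genotype was not tested, since both libraries of a genotype come from 1 litter pool. Both procedures were tested on simulated counts.

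The members and lists were chosen with earlier results of these data known. From each list and comparison, the text names all called genes up to 4, taken by count, or the 2 most counted if there was no call. The 5 genes nearest to Cdh5 were named by their 3 log2 ratios. Alternatives were other scalings, no count filter, a 1.5-fold bound, background subtraction, DESeq2, no block, and transcript length.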

Additional observations from a re-analysis of the deposited data

Results flagged for a closer look

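Cdh5 was in opposite directions between genotypes before and after culture, with both counting intervals on their own side of 1. The mutant to wild type fold was 1.06 (1.03 to 1.10) before and 0.922 (0.886 to 0.961) after culture, a ratio of 0.868 (0.824 to 0.915), close to the median of 0.873 over 9106 genes. With 1 library per group the difference was not tested. With total counts the folds were 0.986 and 0.967, and with background subtracted 0.920 and 0.937, on the same side of 1. Against the endothelial reference genes they were 0.991 (0.958 to 1.03) and 1.02 (0.979 to 1.06), in the reverse order.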

How the results depend on the processing

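Junction genes called higher with culture numbered 5 in each genotype. With total gene counts 1 remained in wild type and 1 in mutant cells, and with background subtracted 1 and 2, the folds of these 5 genes being lower in both settings. The gene called lower in wild type cells, Ocln, became 0 with background subtracted, as no fold could then be computed for it. In mutant cells Cldn5 was 1 called lower with total counts or at 1.5-fold. In the paired test DESeq2 left 0 of 2 genes lower, both with an unadjusted p under 0.05 (0.0187 for Cldn5, 0.0301 for Ocln). Without the replicate block 6 genes were higher and 2 lower, the sixth being Jam3 with an adjusted p of 0.0369 in place of 0.0557 (0.0354 with DESeq2 size factors, 0.0481 without a filter). Against the endothelial reference, the culture folds of Cdh5 (0.684 and 0.703), Pecam1 (0.740 and 0.810), F11r (0.820 and 0.754) and Tjp1 (0.743 and 0.774) reversed. The Jam3 folds, not called with TMM, also went from above 1 to below it (0.441 and 0.455). Over all genes, 1401 higher and 989 lower in wild type cells became 516 and 2983 with total counts, and 976 and 680 in mutant cells became 493 and 1850. The 3440 genes lower in the paired test became 832 with DESeq2. Depth limits Jam2 and Ocln.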
